A study of Mus musculus with 6 samples.

Results

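Genes for the core of the spliceosome were compared between Pitx3 null and heterozygous neurons of the E14.5 mouse embryo. The group was taken by gene symbol. It holds every gene on the array whose platform symbol starts with Snrp, with Lsm and a digit, or with Sf3a, Sf3b or Prpf. That gave 44 genes of the 18295 on the array, read by 78 probes. One of the 44, Snrp1c-ps2, carries the name of a pseudogene. All neurons of both groups had 1 copy of Pitx3 replaced by gfp, the gene of a fluorescent protein, and were sorted from dissected embryonic brain by flow cytometry. The null neurons, Pitx3(gfp/-) by genotype and Pitx3-GFP/AK by source name, came as 1 pool, for which the labels state no number of embryos. The heterozygous neurons, Pitx3(gfp/+), came as 3 pools of several embryos each. Null RNA was set against each of these pools on 2 two-colour arrays with swapped dyes, 6 arrays in all, after 2 rounds of in vitro transcription.

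The spliceosome removes introns from pre-mRNA and is built from small nuclear ribonucleoproteins (snRNPs), each a short RNA with its proteins. A ring of Sm proteins holds the U1, U2, U4 and U5 RNAs, and a ring of the related Lsm proteins holds U6. Another Lsm ring acts in the cytoplasm on mRNA decay. The SF3a and SF3b complexes belong to the U2 snRNP and bind around the branch point, and most Prpf proteins belong to the U4/U6.U5 tri-snRNP or join the spliceosome around it. Pitx3 encodes a homeodomain protein that midbrain dopaminergic neurons need, and the series title places the study in the specification of dopaminergic subsets.

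The share of genes well above background, meaning a signal over the local background median by 2 background SDs, was 54.6% to 68.8% per array in the null RNA and 47.6% to 71.4% in the heterozygous RNA. Across genes, which are not independent replicates, the log2 ratios of a pool's swapped arrays had correlations of 0.61 to 0.72, arrays of other pools with the same dyes had 0.53 to 0.63, and arrays that differed in both had 0.37 to 0.50. All 6 arrays share the null pool. Of 13 dopaminergic neuron markers, 10 were above background, while Th and En1 failed to clear background by this measure on all 6 arrays. The cause of their absence was not tested. The Pitx3 probe read log2 ratios, null over heterozygous, of -0.45, 0.12 and 0.07 in the 3 pools, a mean of -0.08 ± 0.32 (SD, n = 3). It checks nothing about the labels, since both genotypes carry the gfp copy and the probe's place in the gene is not known here.

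Of the 44 genes, 2 were higher in the null pool and 0 were lower at an adjusted p under 0.05 (limma, Benjamini-Hochberg over all 18295 genes). Over all genes, 3.09% were called higher and 1.87% lower, so the share of 4.55% called higher among these genes was near that of the array. Lsm2 and Snrpg were the 2 genes that rose. Lsm2 encodes a subunit of both the U6 ring and the cytoplasmic decay ring, and Snrpg encodes SmG of the Sm ring. At an unadjusted p under 0.05, limma counted 12 genes higher and 1 lower, against 10.8% higher and 9.66% lower over all genes. All 3 pools read above 0 for 17 of the 44 genes, against 22.1% of all genes, and below 0 for 8, against 20.9%. In sorted bulk RNA, fewer cells of a type and less RNA per cell cannot be told apart.

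Lsm2 had normalized intensities of 222, 243 and 200.4 in the null RNA, against 131, 167 and 138 in heterozygous pools 1, 2 and 3. Intensities here include the offset of 50 and are comparable within a probe only. The null values lay above all 3 heterozygous values. Here and for the genes below, the null values are repeat readings of 1 pool. How many of all genes separate in this way was not counted. Its log2 ratio, null over heterozygous, was 0.76 in pool 1, 0.54 in pool 2 and 0.54 in pool 3, a mean of 0.61 ± 0.13 (SD, n = 3) or 1.53-fold. The adjusted p of limma's moderated test over all genes was 0.0301. All 6 arrays read above 0, from 0.48 to 0.77. The further Lsm2 probe cleared background on every array as well and read 0.53 ± 0.096.

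Snrpg had intensities of 620.4, 706 and 649 in the null RNA, against 509, 521 and 544 in the heterozygous pools. These values did not overlap either. The log2 ratios of 0.29, 0.44 and 0.25 averaged 0.33 ± 0.098 (SD, n = 3), 1.25-fold higher in the null pool, with a limma adjusted p of 0.0462. The ratio was larger in one dye orientation. Arrays with the null RNA in Cy5 gave 0.21, 0.12 and 0.16, and those with it in Cy3 gave 0.36, 0.75 and 0.34. Taken alone, neither orientation passed for Snrpg (adjusted p = 0.0751 and 0.0785). A single probe represents this gene.

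Both calls ended when any 1 pool was left out, with adjusted p-values of 0.0764 to 0.119 for Lsm2 and 0.100 to 0.134 for Snrpg. They also ended with plain background subtraction (0.135 for Lsm2 and 0.195 for Snrpg) and with median centring (0.143 and 0.138), and under each of these settings 0 genes passed on the whole array, the calls named further on included. A trended robust variance ended the Snrpg call as well (0.0758) and kept that of Lsm2. The p-values rest on the spread of the ratios across the pool comparisons. That spread holds array noise and repeat readings of the null RNA besides differences between heterozygous pools. It holds no variation between null pools, since there was 1 null pool.

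**Figure D1:**
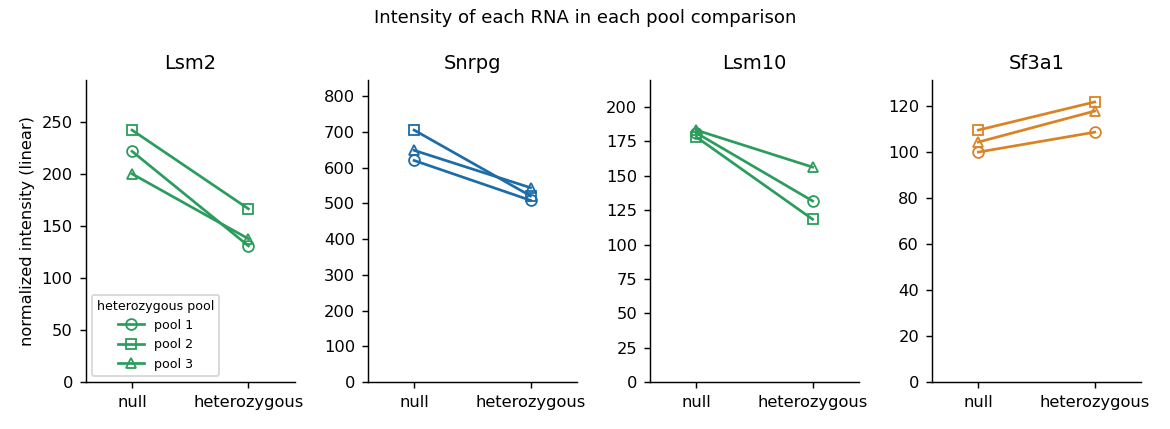
Normalized intensity on a linear axis from 0 for Lsm2, Snrpg, Lsm10 and Sf3a1, with the null RNA on the left and the heterozygous RNA on the right of each panel. Each line joins the 2 RNAs of 1 pool comparison (mean of 2 swapped arrays). Lsm2 and Snrpg lie higher in the null RNA in all 3 comparisons and Sf3a1 lies lower.

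The start regions of Lsm2 and Snrpg are shown because they are the 2 members that passed the threshold. The sequences are the 250 bases before the first listed start site in RefSeq, build GRCm38.p6. Lsm2 lies at chr17:34981604-34981853 on the plus strand and is the upstream of 2 listed starts, and Snrpg lies at chr6:86371290-86371539 on the plus strand. Capitals mark matches to CCAAT or to the cyclic AMP response element TGACGTCA on either strand (ATTGG is CCAAT on the opposite strand).
Lsm2: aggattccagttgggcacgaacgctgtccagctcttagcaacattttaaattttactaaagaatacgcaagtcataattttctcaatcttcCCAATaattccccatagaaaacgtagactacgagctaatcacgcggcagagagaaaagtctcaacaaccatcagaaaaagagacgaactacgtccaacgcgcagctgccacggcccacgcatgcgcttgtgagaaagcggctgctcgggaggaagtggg
Snrpg: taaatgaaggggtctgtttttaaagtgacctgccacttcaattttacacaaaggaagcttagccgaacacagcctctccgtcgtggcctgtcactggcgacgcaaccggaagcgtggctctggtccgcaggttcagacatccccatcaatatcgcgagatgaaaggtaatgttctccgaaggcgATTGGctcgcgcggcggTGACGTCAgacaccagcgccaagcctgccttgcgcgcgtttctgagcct

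The match to CCAAT begins 159 bases before the Lsm2 start and 66 bases before the Snrpg start, and TGACGTCA begins 49 bases before the Snrpg start. CCAAT occurred in 33.9% of all 32851 start regions of this length and in 18 of the 45 regions listed for 35 of the 44 genes. TGACGTCA occurred in 1.55% of all regions and in 3 of the 45. The GC box GGGCGG (32.7% of all regions, 21 of the 45) and the TATA box TATAAA (12.4% of all regions, 3 of the 45) were also searched on both strands and had no match in the 2 sequences shown. A match is a description of the letters only.

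The Sm ring was represented by 7 genes, all above background, which for a gene meant 3 or more arrays in the null or the heterozygous RNA. Snrpg was the 1 that passed. Snrpd2, for SmD2, read 0.18, 0.08 and 0.10 in the 3 pools and averaged 0.12 ± 0.054 (adjusted p = 0.134), with all 6 arrays above 0. Snrpd1 and Snrpd3, for SmD1 and SmD3, had wider spreads, at 0.11 ± 0.18 and 0.07 ± 0.11, and pool 2 was below 0 for both. Snrpf, for SmF, was the lowest at -0.01 ± 0.039. Its probe was dim, with mean signals of 65.5 (null) and 63.9 (heterozygous) over backgrounds of 42 and 39.8. The median over the 7 genes was 0.072, against -0.0027 over all genes.

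Snrpb encodes SmB, and its near-identical copy Snrpn is imprinted and used mainly in neurons. Snrpb read 0.002 ± 0.054, with pools at 0.05, 0.02 and -0.06. Snrpn read 0.01 ± 0.016, and its further probe read -0.004 ± 0.023. Both genes were dim, with mean null signals of 65.5 and 61.2 over backgrounds of 42.8 each. The offset draws dim ratios toward 0, so these values, and that of Snrpf, do not show unchanged levels. Whether the probes tell the 2 genes apart is not known here.

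The 4 genes of the U1 and U2 snRNPs all averaged above 0, with a median of 0.19, and 0 of them passed. Snrpc, for the C protein of U1 that helps pair U1 with the splice donor, was the highest. Its intensities were 490.0, 475 and 509 in the null RNA, against 327, 398 and 444 in the heterozygous pools, with no overlap. The log2 ratios of 0.58, 0.25 and 0.20 averaged 0.34 ± 0.21 (adjusted p = 0.134). Snrpb2, for a U2 RNA-binding protein, averaged 0.24 ± 0.21, and Snrpa, for the A protein of U1, averaged 0.15 ± 0.12. Snrpa1, for the U2 partner of Snrpb2, was the lowest at 0.01 ± 0.061, with pools at 0.07, 0.0004 and -0.05. Its probe was dim as well, at 58.9 (null) and 57.7 (heterozygous) over backgrounds of 42.4 and 41.5.

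Of 12 Lsm genes, 1 rose (Lsm2), 0 fell and 11 did not pass, and 7 were above background. Of those 7, 6 read above 0 on all 6 arrays. The share of all genes that did so was not counted, so this count cannot be read against the array. By pools, 7 of the 12 Lsm genes read above 0 in all 3, against 22.1% of all genes, and the list was not tested. Lsm10, for a subunit of the U7 snRNP that processes histone pre-mRNA, had intensities of 181, 178 and 183 in the null RNA, against 132, 118 and 156 in the heterozygous pools. The groups did not overlap, though the null values again come from 1 pool. Its log2 ratios of 0.46, 0.59 and 0.23 averaged 0.43 ± 0.18 (adjusted p = 0.0724). Lsm14b, a protein of cytoplasmic mRNA granules, averaged 0.35 ± 0.20, but its further probe, well above background on 3 arrays in the null RNA and 1 in the heterozygous RNA, read 0.09 ± 0.080.

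Lsm1, which occurs in the decay ring and not in the U6 ring, read 0.55, 0.08 and 0.28 and averaged 0.31 ± 0.24 (adjusted p = 0.205). Lsm3 and Lsm4, found in both rings, each averaged 0.27 ± 0.10 and each had an adjusted p of 0.0647. Their pool values ran from 0.16 to 0.37 for Lsm3 and from 0.18 to 0.38 for Lsm4. Lsm6, of the same rings, was the exception among the 7. It read -0.01, -0.002 and -0.10, an average of -0.04 ± 0.055, and its further probes read -0.04 ± 0.027 and 0.10 ± 0.072. The brightest probe of Lsm6 was dim, with mean signals of 64.3 in the null RNA and 64.6 in the heterozygous RNA over backgrounds of 42.3 and 40.8. Without background correction, and with the authors' normalized intensities, Lsm6 read above 0 at 0.11. The brightest probe was chosen anew in these settings, so the value may come from another of its probes.

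**Figure D2:**
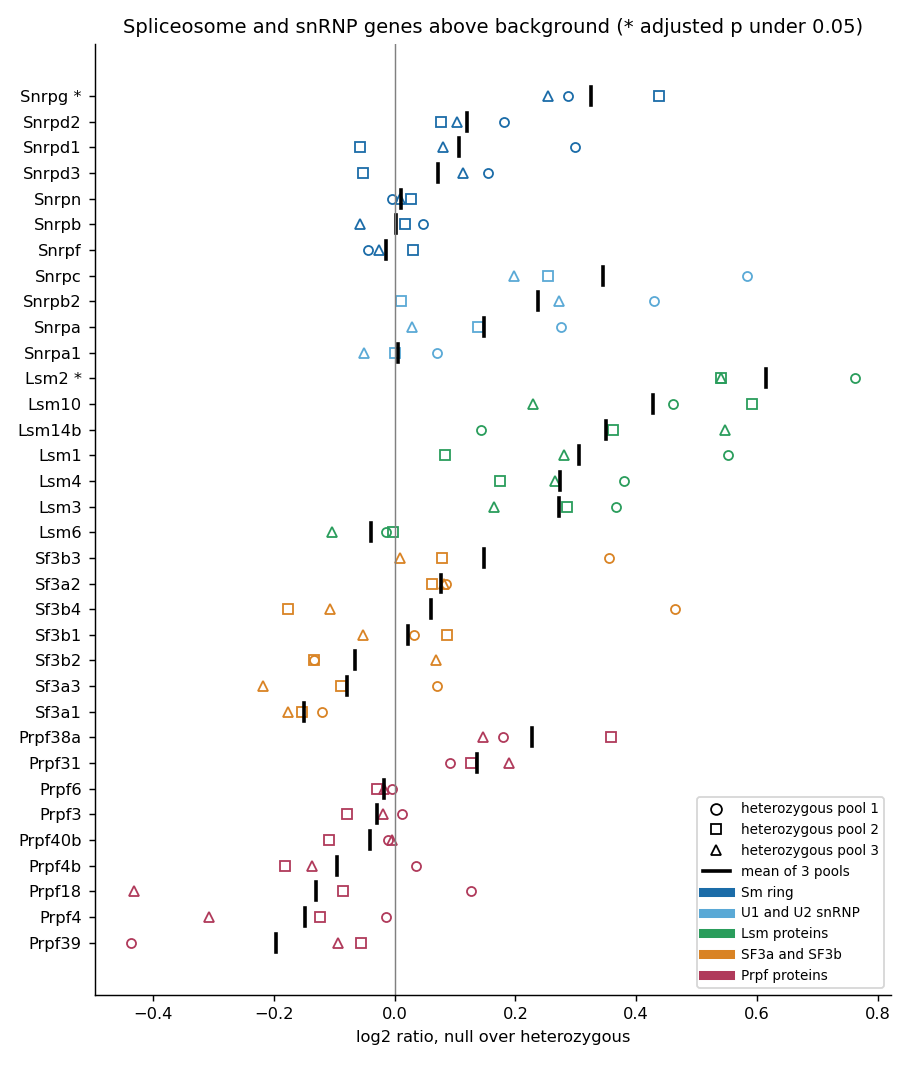
Log2 ratio of null over heterozygous for the 34 members above background, grouped and coloured by role. Open symbols are the 3 heterozygous pools, bars are their means, and asterisks mark Lsm2 and Snrpg. Most Lsm genes lie right of 0 in all pools, and most Prpf genes have their mean left of 0.

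Among the 8 SF3a and SF3b genes, 0 passed in either direction. The median was 0.039, and 7 were above background, with 4 means above 0 and 3 below. Sf3a1, a U2 subunit, came closest to a call. Its intensities were 99.98, 109.6 and 104 in the null RNA, against 109, 122 and 118 in the heterozygous pools, so the groups overlapped across pools but not within a pool. Log2 ratios of -0.12, -0.15 and -0.18 averaged -0.15 ± 0.028 (adjusted p = 0.0584). It was the 1 gene of the 34 below 0 on all 6 arrays, and the share of all genes that did so was not counted. By pools, 6 of the 34 genes and 8 of the 44 (18.2%) read below 0 in all 3, against 20.9% of all genes. Its further probe cleared background on 5 null and 2 heterozygous readings and read the other way at 0.08 ± 0.070.

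Sf3b3, a scaffold of the SF3b complex, was the highest of this role at 0.15 ± 0.18, with 0.36 in pool 1 and 0.08 and 0.01 in the others. Sf3a2 read 0.08 ± 0.012 with all 6 arrays above 0, from a dim probe with mean signals of 60.3 in the null RNA and 55.6 in the heterozygous RNA. Sf3b1, which contacts the branch point, read 0.02 ± 0.070, and its further probe above background read -0.09 ± 0.13. Sf3b4 was bright, and its pools disagreed, with 0.46 in pool 1 against -0.18 and -0.11 in pools 2 and 3. Sf3b2 and Sf3a3 read -0.07 ± 0.12 and -0.08 ± 0.14.

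The 12 Prpf genes had 0 calls and a median of -0.040, and 9 were above background, of which 7 averaged below 0. Prpf38a, which enters the spliceosome with the tri-snRNP, was the highest. It had intensities of 439.8, 450.1 and 463 in the null RNA, against 388, 351 and 418 in the heterozygous pools, without overlap. Its log2 ratios of 0.18, 0.36 and 0.15 averaged 0.23 ± 0.11 (adjusted p = 0.104). Prpf31, a U4/U6 protein, read 0.09, 0.13 and 0.19 and averaged 0.14 ± 0.050 (adjusted p = 0.0965).

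Prpf39, the counterpart of a yeast U1 protein, was the lowest at -0.20 ± 0.21. Pool 1 read -0.44 and the others -0.06 and -0.09, and 4 of its 5 probes were not above background. Prpf4, a U4/U6 protein, averaged -0.15 ± 0.15, and its further probe read -0.07 ± 0.022. Prpf4b, a kinase of the tri-snRNP, read -0.09 ± 0.11 on its brightest probe and -0.20 ± 0.17 on the further one. Prpf18, which acts in the second step of splicing, had pools at 0.13, -0.09 and -0.43. Prpf40b, Prpf3 and Prpf6 lay between -0.04 and -0.02. Prpf40b was dim, well above background on 1 array in the null RNA and 4 in the heterozygous RNA.

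A further 10 genes were not above background by the criterion. Lsm7, Lsm11, Lsm12, Lsm14a, Prpf19 and Snrp1c-ps2 were not well above background anywhere, with 0 arrays in each RNA, so no ratio is given. Prpf38b cleared background 0 times in the null RNA and 2 times in the heterozygous RNA. Its heterozygous level was about 1.03-fold the bound for the null RNA, with a limma adjusted p of 0.653. With so few readings above background, this value bounds no difference. Lsm8 and Prpf8, core proteins of U6 and U5, were well above background on 2 of 6 arrays in each RNA, and Sf3b5 on 2 in the null and 1 in the heterozygous RNA.

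**Figure D3:**
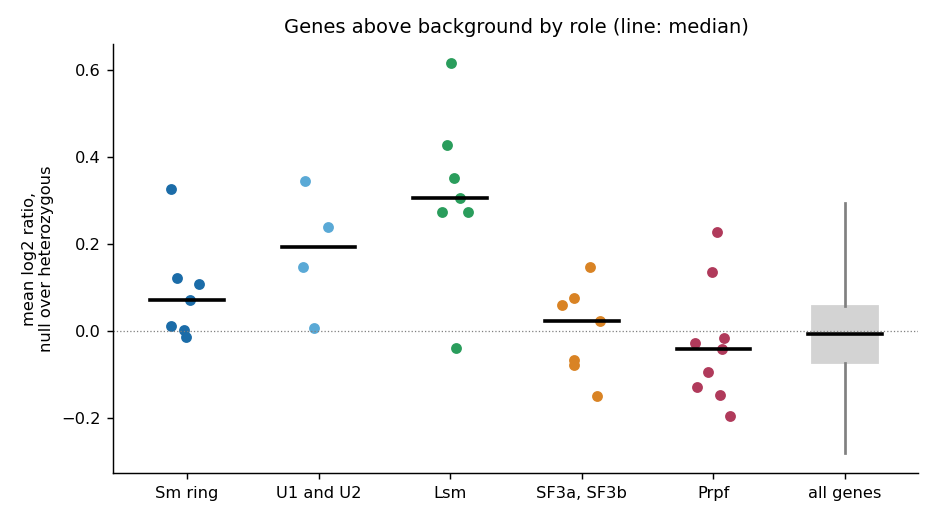
Mean log2 ratio of null over heterozygous for members above background, 1 point per gene in 5 role groups, with the median as a line. The last column gives all 12291 genes above background, with the median, the quartiles as a box and the 5% to 95% range as a line. The Lsm genes have the highest median, at 0.31, and the Prpf genes the lowest, at -0.041.

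Set side by side, the 19 Sm ring and Lsm genes had pool medians of 0.14, 0.030 and 0.080, and the 20 Sf3a, Sf3b and Prpf genes had 0.018, -0.067 and -0.011. The medians over the mean ratios were 0.072 and -0.034. With the mean over a gene's probes in place of the brightest probe they were 0.019 and -0.027, and over all settings tried they ran from 0.019 to 0.20 and from -0.071 to -0.0071. Over the 44 genes the median was 0.019 ± 0.016 (SD of the pools' medians), and over all genes it was -0.0027. Among genes above background, the Sm ring and Lsm median was 0.20 over 14 genes and the Sf3a, Sf3b and Prpf median was -0.035 over 16, against -0.0074 over all 12291. The 4 U1 and U2 snRNP genes, in neither set, had pool medians of 0.35, 0.075 and 0.11 and a median of 0.19. Medians above that of all genes were thus not particular to the Sm ring and Lsm genes. The difference between the Sm ring and Lsm set and the Sf3a, Sf3b and Prpf set was not tested. The reason is that the genes were chosen with earlier results known.

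Gene size moved with these ratios. The median genomic span, in the RefSeq table of assembly GRCm38.p6, was 7.56 kb for Sm ring and Lsm genes above background and 22.1 kb for Sf3a, Sf3b and Prpf genes. Across the 34 genes above background, Spearman's rho between log2 ratio and span was -0.60. Over the other 12230 genes above background with a span it was -0.26. All points share the same 6 arrays and the same null pool. Of genes spanning up to 10 kb, the 12 members had a median of 0.19 and all 3705 genes had 0.017. From 10 to 30 kb the 16 members had -0.011 and all genes -0.0013, and over 30 kb the 6 members had -0.0029 and all genes -0.034. With the trend on span subtracted, Lsm2 still passed and Snrpg read 0.30 with an adjusted p of 0.0529. The median over all 19 Sm ring and Lsm genes was then 0.069, against 0.072 before. That over all 20 Sf3a, Sf3b and Prpf genes was -0.030, against -0.034 before. The part of gene size or RNA quality in the ratios was not tested further.

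**Figure D4:**
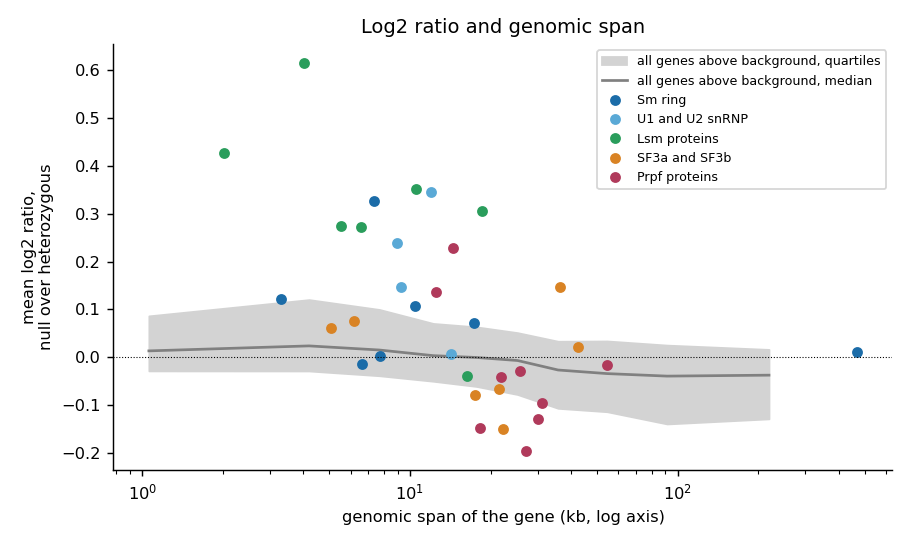
Mean log2 ratio of null over heterozygous against genomic span in kb on a log axis. Points are the members above background, coloured by role, and the grey line and band are the median and quartiles of all genes above background in 10 span classes. Lsm2 and Lsm10 lie far above the band at spans of 4.04 and 2.02 kb.

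Summed intensities of marker lists add probes of unlike brightness, so that the bright ones weigh most. The summed intensity of the 6 radial glia and progenitor markers, all above background, was 5010 to 5218 in the null RNA and 3953 to 4515 in the heterozygous pools, although 0 of the 6 passed. Fabp7 and Vim made up most of it. The 7 pan-neuronal markers measured summed to 2723 to 2793 in the null RNA and 3023 to 3079.5 in the heterozygous pools, with 1 fall, in Elavl3, and 0 rises. Of the 4 cycling cell markers measured, Birc5 rose, and Cdk1 was not well above background on any array. Endothelial markers summed to 1020 to 1049 in the null RNA and 1182 to 1389 in the heterozygous pools, with falls in Cd34 and Sox17. The other markers on this list did not pass. Cdh5 averaged -0.18, and Kdr read -0.76 in pool 2 but -0.08 and -0.01 in pools 1 and 3. Cldn5 and Pecam1 averaged above 0, at 0.04 and 0.03, and Pecam1 was not well above background on any array. Cycling markers summed to 465 to 472 in the null RNA and 420.3 to 436 in the heterozygous pools, and erythroid markers to 602 to 663 and 515 to 588, with a rise in Hbb-y. Dopaminergic markers summed to 1456 to 1601 in the null RNA and 1544 to 1895 in the heterozygous pools, with a fall in Slc6a3. Microglial markers summed to 381 to 424 in the null RNA and 385 to 425 in the heterozygous pools, with 0 of 5 passing, and mesenchymal markers to 423 to 427 and 413 to 421, with a rise in Postn, while the other 4 averaged below 0. In the cycling list, Birc5 alone gave 266 to 275 in the null RNA and 228 to 238 in the heterozygous pools, and Top2a and Cdk1 were not above background. The null and heterozygous sums overlapped for the dopaminergic and microglial lists. All null sums are repeat readings of 1 pool, so their range holds no variation between null pools. How often the sums of other gene lists separate was not counted. The part of any of these cells in the ratios of the spliceosome genes was not tested.

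Of the 44 genes, 22 had several probes. Among the 34 further probes, 14 were above background, from 12 genes. The sign matched that of the brightest probe for 9 and differed for 5, those of Lsm6, Sf3a1, Sf3b1, Snrpd3 and Snrpn. The further probe of Snrpb2 read 0.08 ± 0.0078, below the 0.24 of its brightest probe, and that of Prpf18 read -0.16 ± 0.16.

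**Figure D5:**
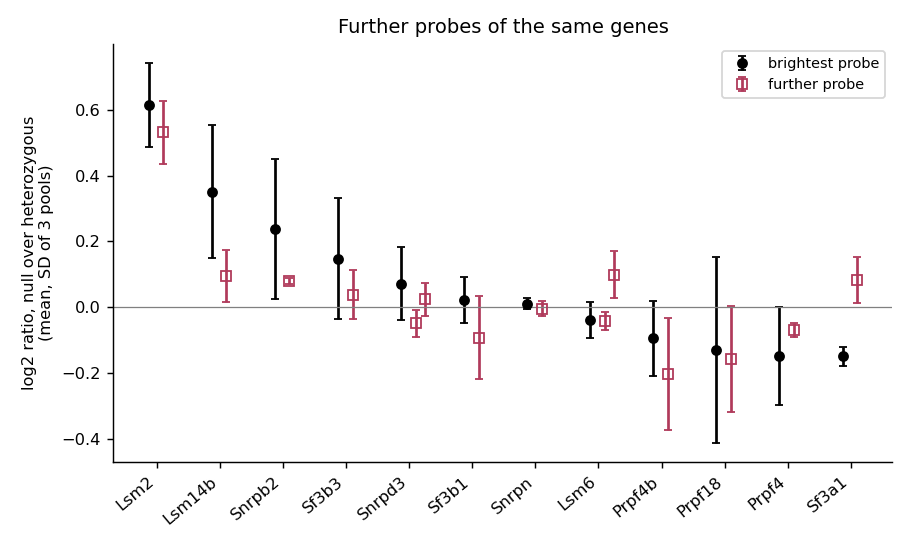
Log2 ratio of null over heterozygous, mean and SD of 3 pools, for the 12 genes with more than 1 probe above background. Filled circles are the brightest probe and open squares the further ones. Both Lsm2 probes lie above 0.5, and the Sf3a1 probes lie on opposite sides of 0.

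Other genes of the spliceosome went both ways. Of 60 measured genes on a list of other spliceosome proteins, 4 rose, 3 fell and 53 did not pass, with a median of -0.010 and with 3.09% of all genes called higher and 1.87% lower. At an unadjusted p under 0.05, 8 were higher and 17 lower, against 10.8% and 9.66% of all genes. All 3 pools read above 0 for 12 and below 0 for 19. Ik, a protein of the spliceosome before its activation, fell by 0.39 ± 0.056 on the log2 scale (adjusted p = 0.0268). Its pools read -0.39, -0.33 and -0.44. Snrnp70, which binds U1 RNA beside the Snrpa and Snrpc proteins, fell by 0.25 ± 0.051 (adjusted p = 0.0389). Snu13, a U4 RNA-binding protein, rose by 0.32 ± 0.097 (adjusted p = 0.0472), and Zcrb1, of the minor U11/U12 snRNP, by 0.27 ± 0.079 (adjusted p = 0.0478). With the mean over probes Snrnp70 read -0.15 (adjusted p = 0.129) and Zcrb1 read 0.14 (0.0504), and neither passed. With a trended robust variance none of these 4 passed (adjusted p = 0.0568 to 0.111). Snrnp70 and Zcrb1 did not pass with the null RNA in Cy5 only (0.118 and 0.0858), nor Ik, Snrnp70 and Snu13 with it in Cy3 only (0.0511, 0.0543 and 0.104). Zcrb1 also lost its call with the span trend removed (0.0577).

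The other calls, named after their values were seen, were rises in Snrnp25 (0.23 ± 0.056) and Xab2 (0.18 ± 0.032) and a fall in Rnpc3 (-0.18 ± 0.038). Their limma adjusted p-values were 0.0453, 0.0453 and 0.0499, close to the threshold. These calls were not followed singly under the other settings, apart from those in which 0 genes passed. Snrnp25 and Rnpc3 both encode U11/U12 proteins. The lowest ratio on the list did not pass. It belonged to Htatsf1, a U2-associated protein, at -0.87 ± 0.32 (adjusted p = 0.0538), and was also picked after its value was seen. Sf3b6, the branch-point protein of SF3b, is listed on the platform under an older name and so falls outside the symbol rule. It read 0.57, 0.35 and 0.60, an average of 0.51 ± 0.14, and passed (adjusted p = 0.0393).

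Of 18 genes for snRNP assembly and transport, 1 rose and 1 fell, with 3.09% of all genes called higher and 1.87% lower. Gemin8, of the SMN complex that loads Sm rings onto RNA, rose by 0.39 ± 0.12 (adjusted p = 0.0467), but read 0.12 with the mean over probes (adjusted p = 0.0714). Phax, the adaptor that exports new snRNAs, fell by 0.22 ± 0.037 (adjusted p = 0.0394). Neither passed with the null RNA in Cy3 only, where Gemin8 read 0.40 (0.0738) and Phax -0.13 (0.107). Smn1 was not well above background on any array. The 10 partners of the Lsm ring in mRNA decay had 0 calls by limma and a median of -0.023. At an unadjusted p under 0.05, 0 were higher and 2 lower, against 10.8% and 9.66% of all genes.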

How the data were processed

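Spot and local background intensity in 2 channels were taken, per the file headers, from unnormalized scanner tables. Channel 1 followed the deposited Cy5 values and channel 2 the Cy3 values. The authors' normalized intensities and their log2 table, equal to the log2 of normalized Cy5 over Cy3, were compared (array medians -0.000583 to 0.00233, signs not turned), and the intensities served as an alternative. The scanner and the authors' normalization are not given in the sources used here.

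Of 45220 spots, 4046 were controls; of 41174 probes, 34186 had 1 symbol, 0 several and 6988 none. Symbols were updated through RefSeq (30365 current, 3726 updated, 95 kept). Intensities were corrected with normexp (offset 50) and normalized by loess in limma 3.58.1 (R 4.3.3). Ratios were turned to null over heterozygous, swapped arrays averaged (n = 3 pools), and genes represented by their brightest probe. Intensities were scaled with Aquantile for display. The fit of lmFit and eBayes against 0 used Benjamini-Hochberg adjustment over all genes, and was tested on simulated data. Well above background means above the local median by 2 background SDs. The number of arrays limits precision.

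Alternatives covered background, normalization, probes, dyes, variance and pools. The pairing of arrays comes from the labels. Named genes were those past the threshold, the highest and lowest above background of each role, Snrpb and Snrpn, and up to 4 called genes per related list, 18 in all. Other members are named as members. Members and lists were chosen with earlier results of these data known.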

Additional observations from a re-analysis of the deposited data

How the results depend on the processing

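All genes called, 566 higher and 342 lower, became 0 and 0 with plain background subtraction or median centring, 1234 and 987 in a model of the 6 arrays with a dye term and pool as a random block, and 0 to 0 for both when leaving out any 1 pool. At an unadjusted p under 0.05 limma counted 3753 genes, against 3330 with plain subtraction, 2604 with median centring and 2956 to 3259 when leaving out a pool. The lower count was 532 with a trended robust variance. Of the spliceosome genes, 2 higher and 0 lower became 8 and 1 in the 6-array model, 1 higher (Lsm2) with the span trend removed, a setting chosen after seeing the data, and 0 higher with plain subtraction, median centring and, 0 to 0, leaving out each pool. The median over the 44 genes, 0.019, was 0.057 with plain subtraction, 0.066 with the dim-probe filter, which leaves 34 genes, 0.035 with the null RNA in Cy3 and 0.0073 with the mean over probes. The Sm ring and Lsm median, 0.072, was 0.19 with plain subtraction, 0.20 with that filter, 0.044 with the null RNA in Cy5, 0.019 with the mean over probes and 0.028 to 0.13 when leaving out each pool, lowest without pool 1 and highest without pool 2. The Sf3a, Sf3b and Prpf median, -0.034, was -0.071 with plain subtraction, -0.069 with the null RNA in Cy5, -0.0071 with it in Cy3, -0.012 with median centring, and -0.040 to -0.0088 when leaving out each pool, nearest to 0 without pool 2. The cause was not tested, except that fewer pools or genes enter the filtered and left-out settings. Counts with the authors' intensities, without background correction, with the mean over probes and in each dye orientation stayed within 1.5 times for genes and members. The members called there were not always the same: Lsm2 was called in each, Snrpg in neither orientation alone nor with the trended robust variance. Lsm10 passed with the dim-probe filter, the trended robust variance, the 6-array model and the null RNA in Cy3. For the 18 named genes, 192 values kept direction and call, 59 kept direction and lost the call, 3 gained it, and 16 uncalled values near 0 changed sign. Dim probes, 10 of the 44 genes, limit what could be seen.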
